A study of Acomys cahirinus and Mus musculus with 24 samples.

Results

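The genes described here are 45 genes of the cornified envelope, the epidermal barrier and the desmosome. They were chosen by name, with earlier results of these data known. Among them are 13 envelope structural proteins, 3 transglutaminases, 4 lipid genes and 7 proteases and inhibitors. The others are 11 desmosome, corneodesmosome and plakin genes, 4 junction genes and 3 transcription regulators. Of the 45 genes, 44 are among the 14514 genes of the count table shared by both species, and 43 were tested there. The filter on low counts removed none of the 14514 genes. Flg (filaggrin) is absent from the shared table and from both species' own tables. Cdsn (corneodesmosin) is listed at 0 in all Mus columns of the shared table but is well counted in the Mus table, so it was left out of all counts below and is described within each species from that species' table.

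The libraries hold dorsal skin of adult Mus musculus (outbred CD-1 mice) and adult Acomys cahirinus, the spiny mouse, for which the labels give no strain. Each sample was unwounded skin (day 0) or the wound left by a full-thickness excision 8 mm across, taken 7 or 14 days later. No animal carried a transgene or drug according to the labels. Each group held 4 libraries, apart from Mus skin with 3 (replicates 1, 2 and 4), and 1 pooled, nuclease-normalised Acomys library was not analysed here. Whether libraries of a group are separate animals is not stated, so a p-value here reflects only how these libraries differ from each other, which may be technical. The column names carry the same library numbers on each day of a species, apart from a Mus number missing at day 0. Libraries of different days may thus share an animal, which is not stated, and the main fit treats them as separate.

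The outer epidermis is built by keratinocytes that stop dividing, move upwards and assemble a cornified envelope beneath the plasma membrane. Transglutaminases cross-link loricrin, involucrin, small proline-rich (SPRR) proteins and plakins into that envelope, ceramide lipids are attached to its outside, and desmosomes rivet neighbouring cells together until kallikrein proteases cut them and the dead cells are shed. In a skin wound the keratinocytes at the edge change programme, making wound keratins such as Krt6a and migrating over the defect before a stratified, cornified layer is rebuilt.

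Total counts per library in the shared table were 5980683 to 9853153. Levels below are CPM, TMM-scaled counts relative to the size of a library. They can be compared across libraries for 1 gene but not between genes, since they are not divided by transcript length. Changes are log2 fold changes with their SE after the ± sign, from the edgeR quasi-likelihood test, and "rose" and "fell" are kept for genes whose adjusted p over all 14514 features was under 0.05. The labels call the tissue dermal skin, and epidermal keratins were counted in every library: Krt14 ranged from 399 to 8552 CPM and Krt10 from 155 to 1299 CPM. Krt5, a basal keratin, ranged from 84.2 to 232 CPM in Mus but from 2.51 to 7.32 CPM in Acomys. The 4 wound-activated keratins (Krt6a, Krt6b, Krt16, Krt17) summed to 627 to 761 CPM in Mus skin, 8330 to 15128 CPM in day 7 wounds and 2643 to 9004 CPM in day 14 wounds. The Acomys sums were 126 to 271, 5111 to 7622 and 52.5 to 91.9 CPM in the same order. Their part in the results below was not tested. In whole tissue, fewer keratinocytes and less RNA of a gene per keratinocyte cannot be told apart.

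Counted over the 43 genes, both species changed about as many barrier genes as other genes at day 7, whereas at day 14 the Acomys wound had most barrier genes below skin. In Mus at day 7, 12 genes rose and 10 fell, together 51.2% of the genes against 53.7% of all features called (27.0% higher and 26.7% lower). In Acomys at day 7, 9 rose and 16 fell, together 58.1% against 61.8% of all features (30.4% higher and 31.4% lower). At day 14 in Mus, 13 rose and 8 fell, together 48.8% against 43.8% (21.6% higher and 22.1% lower). That Mus split is unstable: it was 9 higher and 17 lower without wound replicate 3, 8 and 8 without skin replicate 1 or 2, 8 and 6 in the Mus table, and 9 and 18 with a block for replicate number. The block also gave 12 higher and 19 lower in Mus at day 7. At day 14 in Acomys, 2 rose and 27 fell: 62.8% of the genes fell, against 20.0% of all features called lower and 18.9% called higher. Leaving out single libraries of Acomys gave 0 to 2 higher and 23 to 29 lower. The median log2 fold change over the 43 genes was -0.06 and 0.10 in Mus at days 7 and 14, and -0.33 and -0.97 in Acomys. Over all features these medians were 0.00, 0.00, -0.03 and -0.02.

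These counts depend on what a library is scaled to. The geometric mean of 8 keratinocyte genes (Krt5, Krt14, Trp63, Cdh1, Perp, Epcam, Itgb4 and Col17a1) was 393 ± 28.5 CPM (SD, n = 3) in Mus skin, 214 ± 39.9 (n = 4) at day 7 and 208 ± 51.2 (n = 4) at day 14. The Acomys means were 212 ± 10.7, 117 ± 28.4 and 107 ± 7.75 (n = 4 each). By this mean all wound libraries lay below all skin libraries of their species, but the 8 genes did not move together: in Mus at day 7 Krt14 rose, 2.15 ± 0.29, while Epcam and Col17a1 fell, -2.53 ± 0.29 and -2.15 ± 0.19. The plain sum of the 8 was 4665 to 5632 CPM in Mus skin and 6366 to 11043 CPM in day 7 wounds, and 2655 to 3144 and 3082 to 4298 CPM in Acomys. Scaled to these 8 genes instead of TMM, the median value of the 43 genes moved up by 0.84 and 0.89 in Mus and by 0.87 and 0.99 in Acomys. The counts then became 26 higher and 4 lower in Mus at day 7, and 29 and 4 at day 14. In Acomys they became 26 and 10 at day 7, and 9 and 8 at day 14. This scaling acted on all 14514 features. At days 7 and 14, 10784 and 11163 of them were called in Mus, and 11365 and 11686 in Acomys. In Acomys at day 14 the called share of the barrier genes, 17 of 43, was thus lower than that of all features. The differences between the species' changes, in which the shift nearly cancels, kept their split (2 higher and 13 lower at day 7, 1 and 22 at day 14). Of all features, 2672 and 1612 were called in these differences.

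**Figure D1:**
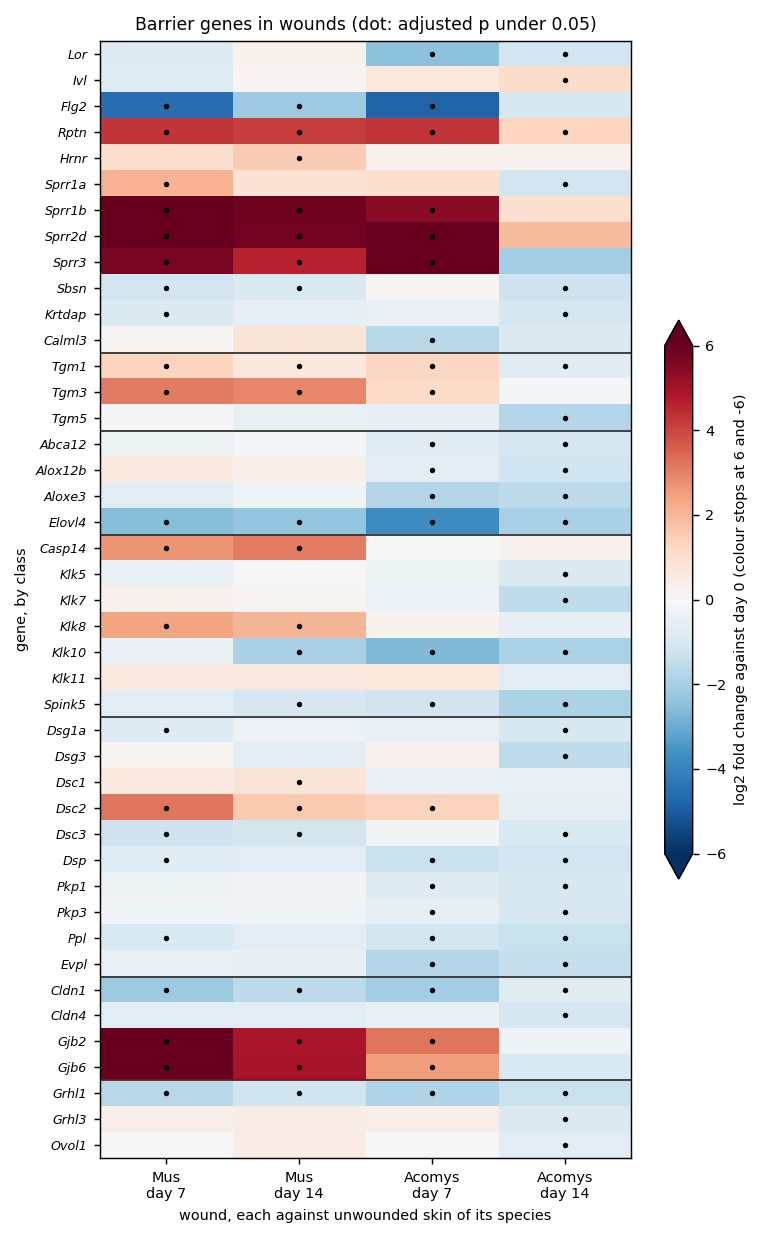
Log2 fold change of each of the 43 genes (rows, grouped by class with black lines) in the 4 wound groups against unwounded skin of the same species; red is higher, blue lower, and a dot marks an adjusted p under 0.05. The Sprr1b, Sprr2d, Sprr3, Gjb2, Gjb6, Rptn and Tgm3 rows are red in 3 columns, Tgm3 only faintly in Acomys at day 7. Each of these rows is less red, or blue, in the Acomys day 14 column. In that column 27 of 43 genes are lower and 2 higher.

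Some of the envelope structural proteins rose steeply in early wounds and others fell. Of the 12 tested in this class, 5 rose (41.7%, against 27.0% of all features) and 3 fell (25.0% against 26.7%) in Mus at day 7. In Acomys at day 7, 4 rose (33.3% against 30.4%) and 3 fell (25.0% against 31.4%). At day 14 in Mus, 5 rose (41.7% against 21.6%) and 2 fell (16.7% against 22.1%). At day 14 in Acomys, 2 rose (16.7% against 18.9%) and 4 fell (33.3% against 20.0%). In the mouse genome 10 of the listed genes, Flg among them, lie within chr3:92080271-93399442 (GRCm38, GENCODE vM21). The small proline-rich genes there resemble each other to different degrees. The coding sequences of Sprr1a and Sprr1b are 83.3% identical with a longest shared run of 20 bases, and those of Sprr2d and Sprr2e are 94.7% identical with a shared run of 73 bases. Whether counts were split between such genes was not tested. The first 99 coding bases of each, from the GRCm38 transcripts of GENCODE vM21, show the positions that separate a pair (capitals mark the bases at which the 2 of a pair differ, 17 for the first pair and 4 for the second):
Sprr1a: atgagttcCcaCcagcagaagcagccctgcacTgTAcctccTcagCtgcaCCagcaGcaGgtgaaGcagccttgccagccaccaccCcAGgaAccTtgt
Sprr1b: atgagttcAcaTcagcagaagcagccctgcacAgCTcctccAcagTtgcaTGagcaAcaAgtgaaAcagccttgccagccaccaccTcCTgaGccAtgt
Sprr2d: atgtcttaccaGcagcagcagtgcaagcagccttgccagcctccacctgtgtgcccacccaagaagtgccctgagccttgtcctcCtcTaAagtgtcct
Sprr2e: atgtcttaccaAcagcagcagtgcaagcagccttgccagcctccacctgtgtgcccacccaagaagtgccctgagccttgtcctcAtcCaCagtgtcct

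Sprr1b, a proline-rich envelope precursor, stood at 0.150, 0 and 2.25 CPM at day 0, 72.4, 95.8, 132 and 58.7 CPM at day 7, and 18.1, 51.8, 85.5 and 37.2 CPM at day 14 in Mus. In Acomys its levels were 0.209, 0.253, 0 and 0.674 CPM at day 0, 15.4, 15.2, 10.9 and 11.7 CPM at day 7, and 0.938, 0.658, 0.536 and 0.277 CPM at day 14. All early wounds of both species lay above all skin libraries. At day 14 the Mus wounds were still above all Mus skin, while the Acomys wounds overlapped Acomys skin. The log2 fold changes against skin were 6.73 ± 0.67 (adjusted p = 6.8e-08) and 5.83 ± 0.67 (adjusted p = 8.67e-07) in Mus, and 5.41 ± 0.72 (adjusted p = 2.06e-06) and 0.97 ± 1.14 (adjusted p = 0.536) in Acomys. Nearly all skin counts of Mus came from replicate 4 (18 counts), and without that library the Mus values were 10.07 and 9.17.

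Sprr2d, a smaller relative, read 0.150, 0 and 2.00 CPM at day 0, 124, 58.7, 139.7 and 92.8 CPM at day 7, and 23.6, 21.2, 78.7 and 44.1 CPM at day 14 in Mus. The Acomys libraries gave 0.209, 0.505, 0 and 0.562 CPM at day 0, 133, 158, 73.4 and 125 CPM at day 7, and 4.13, 0.768, 0.179 and 0 CPM at day 14. It rose at day 7 by 7.09 ± 0.90 in Mus and 8.48 ± 0.87 in Acomys, and without Mus skin replicate 4 (16 counts) the Mus value was 10.28. At day 14 it was higher in Mus, 5.79 ± 0.91 (adjusted p = 4.06e-05), and its Acomys value was 1.91 ± 1.32 (adjusted p = 0.276), with 1 library at 4.13 CPM and 3 at 0 to 0.768.

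Sprr3, another member of the family, had no count in Mus skin, which makes Mus wounds at least 5.95-fold higher at day 7 and at least 2.70-fold higher at day 14 with 3 counts over the skin group as the floor. The Mus wounds held 21 counts at day 7 and 9 at day 14, and the day 14 call is lost without any 1 of the 3 skin libraries or without wound replicate 4 (adjusted p up to 0.135), or once replicate number is a block in the fit (adjusted p = 0.0578). In Acomys it read 0.314, 0.253, 0 and 0 CPM at day 0, 15.5, 12.0, 17.2 and 9.35 CPM at day 7, and 0, 0, 0.0893 and 0 CPM at day 14. The day 7 group does not overlap the others, and its rise was 6.37 ± 0.56 (adjusted p = 7.31e-09). From 559 counts at day 7 it came to 1 count at day 14, a level 570-fold lower with a 95% counting interval of 102 to 22544. Sprr1a rose in Mus at day 7, 2.08 ± 0.48 (adjusted p = 0.00117). Its Acomys value was 0.94 ± 0.42 (adjusted p = 0.0572). At day 14 Sprr1a fell in Acomys, -1.13 ± 0.43 (adjusted p = 0.0444), a call lost without any of 5 single libraries (adjusted p up to 0.182), with only the Acomys skin and day 14 groups in the fit (0.0552) and in the species' own table (0.0682).

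Rptn, repetin, an S100-fused precursor of the envelope, rose by nearly the same amount in both species at day 7: 4.29 ± 0.55 in Mus and 4.27 ± 0.49 in Acomys, a difference of -0.02 ± 0.70 (95% interval -1.48 to 1.45, adjusted p = 1). Its levels in Mus were 43.4, 82.4 and 73.0 CPM at day 0, 798, 1535, 2246 and 597 CPM at day 7, and 949, 765, 1619.6 and 1390.4 CPM at day 14. In Acomys they were 12.8, 9.47, 8.77 and 16.2 CPM at day 0, 311, 182, 158 and 264 CPM at day 7, and 36.1, 14.699, 51.0 and 14.39 CPM at day 14. Mus wounds of both days lay above all Mus skin. In Acomys 2 of 4 day 14 libraries lay within the range of skin, and the day 14 rise of 1.30 ± 0.46 (adjusted p = 0.0299) is lost without any of 5 single libraries (adjusted p up to 0.148) and in the species' own table (0.0515). The day 14 change was lower in Acomys than in Mus, -2.86 ± 0.66 (adjusted p = 0.00376).

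**Figure D2:**
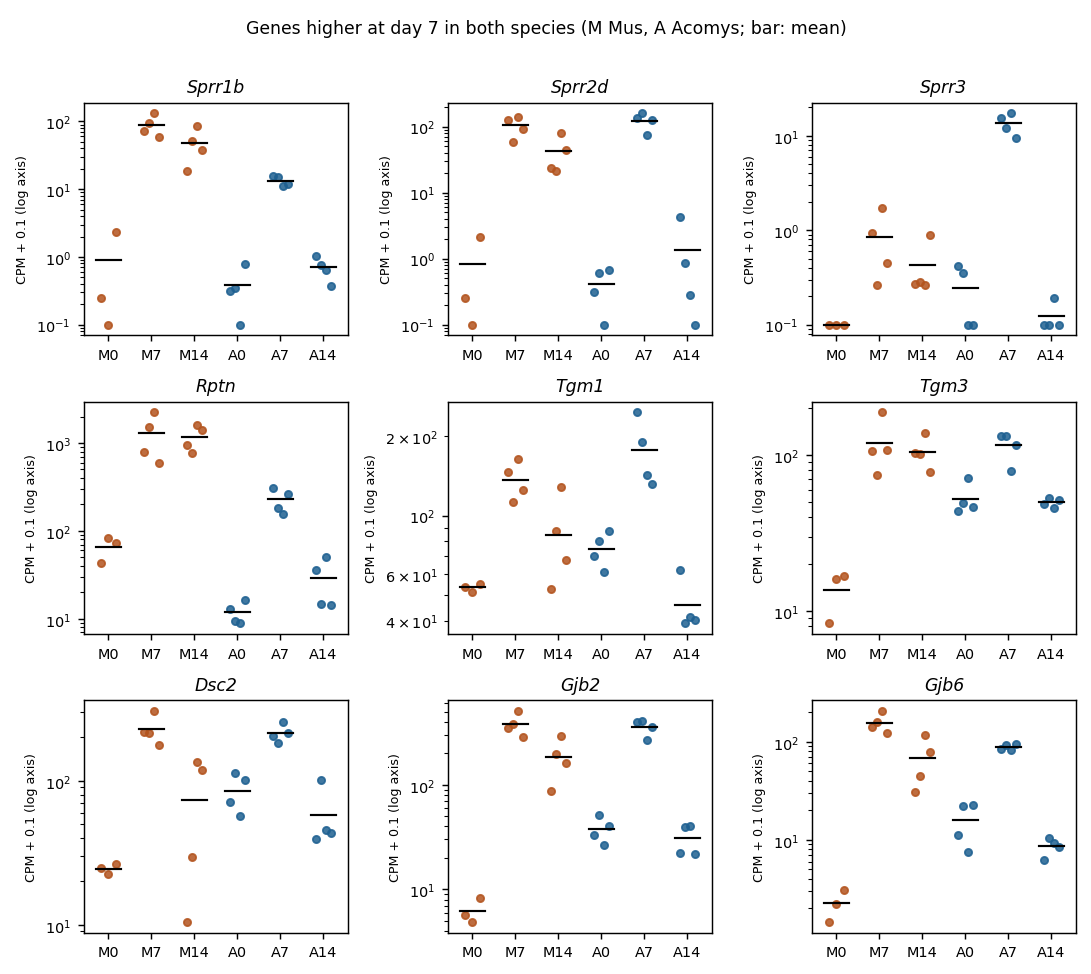
CPM + 0.1 on a log axis (each panel has its own scale) in every library for the 9 genes called higher at day 7 in both species; M is Mus, A Acomys, the number is the day, points are libraries and black bars are group means. All 9 Mus day 14 means stay above Mus skin, while the Acomys day 14 means fall back to the range of Acomys skin or below it for all but Sprr2d and Rptn.

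Other envelope genes fell. Flg2, a filaggrin relative of the granular layer, fell by the most at day 7: -4.59 ± 0.45 in Mus and -4.80 ± 0.45 in Acomys, from skin at 3754 to 4366 and 4274 to 5459.8 CPM to wounds at 59.6 to 324 and 98.0 to 244 CPM. The groups do not overlap in either species. By day 14 it had come up from day 7 in both, by 2.41 ± 0.40 in Mus and 3.83 ± 0.43 in Acomys. Against skin it was still lower in Mus, -2.18 ± 0.42 (adjusted p = 0.000252), and its Acomys value was -0.97 ± 0.38 (adjusted p = 0.0507).

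Lor, loricrin, the main mass of the envelope, read 83.0, 84.3 and 73.1 CPM at day 0, 26.2, 70.6, 76.6 and 13.4 CPM at day 7, and 87.7, 106, 124 and 57.8 CPM at day 14 in Mus. In Acomys it read 25.0, 39.5, 27.2 and 33.5 CPM at day 0, 6.02, 4.05, 5.51 and 7.02 CPM at day 7, and 15.8, 13.5, 13.3 and 14.11 CPM at day 14. All Acomys wounds lay below all Acomys skin at both days, and day 7 lay below day 14. Mus day 7 was split, with 2 libraries near skin (70.6 and 76.6 CPM) and 2 far below (13.4 and 26.2). Lor fell in Acomys, -2.46 ± 0.40 (adjusted p = 2.45e-05) at day 7 and -1.14 ± 0.37 (adjusted p = 0.0192) at day 14, the latter lost without skin replicate 2 (adjusted p = 0.0565). The Mus values were -0.77 ± 0.38 (adjusted p = 0.0905) and 0.23 ± 0.38 (adjusted p = 0.665); without day 7 replicate 2 or 3 the first is called (adjusted p down to 0.0178). The day 7 change was lower in Acomys, -1.69 ± 0.55 (adjusted p = 0.0222), which no longer passes without day 7 replicate 2 or 3 of Mus (adjusted p up to 0.0544).

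Ivl, involucrin, an early scaffold of the envelope, was 35.2, 33.6 and 34.6 CPM at day 0, 7.68, 41.0, 19.9 and 14.9 CPM at day 7, and 34.5, 27.4, 28.7 and 56.7 CPM at day 14 in Mus. Its Acomys levels were 22.3, 31.9, 22.4 and 55.1 CPM at day 0, 68.7, 49.4, 48.5 and 39.8 CPM at day 7, and 62.5, 83.4, 88.8 and 45.5 CPM at day 14. The Mus groups overlap. In Acomys 3 of 4 day 14 libraries lay above all skin libraries, and Ivl was, with Rptn, the only gene of the 43 that rose there, 1.09 ± 0.37 (adjusted p = 0.0267). That call is lost without any of 5 single libraries (adjusted p up to 0.0798) or once replicate number enters the fit as a block (0.0579). Calml3, a calmodulin-like protein of keratinocytes, gave 163, 125 and 145 CPM at day 0, 97.1, 183, 272 and 61.7 CPM at day 7, and 204, 146, 359 and 264 CPM at day 14 in Mus. In Acomys it gave 79.9, 169.8, 77.0 and 139 CPM at day 0, 48.9, 32.6, 26.8 and 38.0 CPM at day 7, and 59.8, 76.5, 68.3 and 54.0 CPM at day 14. It fell in Acomys at day 7, -1.67 ± 0.38 (adjusted p = 0.000751), where all 4 wounds lay below all skin, and its Mus value was 0.09 ± 0.39. The difference was -1.76 ± 0.55 (adjusted p = 0.0169), or an adjusted p of 0.0554 with replicate number as a block.

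The other 3 genes of this class were Hrnr, Sbsn and Krtdap. Hrnr, hornerin, rose in Mus at day 14, 1.55 ± 0.51 (adjusted p = 0.018), a call lost without skin replicate 1 or 2 or wound replicate 3 (adjusted p up to 0.0664) and in the Mus table (0.0728). It was not called in Acomys at either day. Sbsn, suprabasin, fell in Mus at both days, -1.14 ± 0.30 (adjusted p = 0.00311) and -0.91 ± 0.30 (adjusted p = 0.0181), the second lost without skin replicate 4 or wound replicate 1 (adjusted p up to 0.0568) and in the Mus table (0.0927). In Acomys it fell at day 14, -1.23 ± 0.28 (adjusted p = 0.00172), and its day 7 value of 0.15 ± 0.28 differed from that of Mus by 1.28 ± 0.41 (adjusted p = 0.019). Krtdap, a keratinocyte differentiation-associated peptide, fell in Mus at day 7, -0.87 ± 0.27 (adjusted p = 0.00906), and in Acomys at day 14, -1.06 ± 0.25 (adjusted p = 0.00178).

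Among the transglutaminases, 2 of 3 rose at day 7 in both species (66.7%, against 27.0% of all features in Mus and 30.4% in Acomys). The same 2, Tgm1 and Tgm3, stayed higher at day 14 in Mus (66.7% against 21.6%). Tgm1 (transglutaminase 1, the membrane-bound cross-linker of the envelope) read 53.8, 51.3 and 55.1 CPM at day 0, 146, 113, 163 and 125 CPM at day 7, and 52.8, 87.6, 129 and 68.0 CPM at day 14 in Mus. In Acomys it read 70.0, 79.8, 61.1 and 87.0 CPM at day 0, 246, 189.6, 142 and 131 CPM at day 7, and 62.2, 38.9, 41.2 and 40.2 CPM at day 14. Day 7 wounds lay above all skin in both species, and in Acomys 3 of 4 day 14 wounds lay below all skin. It rose at day 7 by 1.36 ± 0.26 in Mus and 1.25 ± 0.23 in Acomys. At day 14 it was the only gene of the 43 called in opposite directions, 0.66 ± 0.26 (adjusted p = 0.0424) in Mus and -0.71 ± 0.23 (adjusted p = 0.0201) in Acomys. Both calls depend on single libraries: the Mus one is lost without any of 5 single libraries (adjusted p up to 0.20), with a replicate block (0.10), with only the 2 groups in the fit (0.0989) and in the Mus table (0.0572), and the Acomys one without any of 4 single libraries (up to 0.0611), turning to 0.27 when scaled to the keratinocyte genes. The difference of the day 14 changes was -1.36 ± 0.35 (adjusted p = 0.00654) and was called without each library in turn.

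Tgm3, which cross-links envelope and hair proteins, gave 8.24, 15.9 and 16.6 CPM at day 0, 107, 74.9, 189 and 108 CPM at day 7, and 103, 102, 139 and 77.8 CPM at day 14 in Mus. The Acomys libraries gave 43.6, 49.0, 70.9 and 46.8 CPM at day 0, 132, 133, 79.6 and 117 CPM at day 7, and 48.5, 52.8, 45.6 and 51.8 CPM at day 14. All Mus wounds were above all Mus skin. In Acomys the day 7 wounds were above all skin and the day 14 wounds overlapped it. The rise at day 7 was 3.13 ± 0.31 in Mus and 1.14 ± 0.25 in Acomys, a difference of -1.99 ± 0.39 (adjusted p = 0.000457), and the day 14 difference was -3.02 ± 0.39 (adjusted p = 1.53e-05). In Acomys the shared table holds only 24.7% of the Tgm3 counts of the species' own table, against a median of 70.0% over genes, and in that own table the day 7 value was 0.28 ± 0.13 and not called (adjusted p = 0.0955), nor was day 14 against day 7, -0.34 ± 0.13 (adjusted p = 0.0618). The Mus table gave 3.15 ± 0.38 at day 7. The rise of Tgm3 in Acomys depends on the table, and the differences between the species were fitted on the shared table. Tgm5, a transglutaminase of the upper epidermis, was not called in Mus wounds and fell in Acomys at day 14, -1.78 ± 0.25 (adjusted p = 1.11e-05).

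The 4 barrier lipid genes moved one way in Acomys, where all 4 fell at both days, against 31.4% and 20.0% of all features called lower. In Mus 1 of 4, Elovl4, fell at both days (25.0%, against 26.7% and 22.1%) and none rose. Scaled to the keratinocyte genes, the Acomys day 7 values of Abca12 and Alox12b turned to 0.14 and 0.13. Elovl4, which makes the ultra-long fatty acids of barrier ceramides, read 178, 189 and 189 CPM at day 0, 24.6, 36.8, 42.7 and 21.8 CPM at day 7, and 24.1, 35.8, 54.2 and 34.6 CPM at day 14 in Mus. In Acomys it read 331, 583, 320.0 and 443 CPM at day 0, 38.4, 32.9, 22.2 and 27.5 CPM at day 7, and 118, 65.9, 82.9 and 167 CPM at day 14. No wound library overlapped skin in either species. It fell, -2.55 ± 0.31 and -2.32 ± 0.31 in Mus and -3.79 ± 0.31 and -1.95 ± 0.29 in Acomys, and between day 7 and day 14 it rose in Acomys, 1.84 ± 0.29 (adjusted p = 3.82e-05). The shared table holds 12.5% of the Elovl4 counts of the Mus table, where its changes were -2.70 and -2.36. The day 7 difference, -1.24 ± 0.43 (adjusted p = 0.0281), is lost without any of 7 single libraries (adjusted p up to 0.0653).

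Alox12b, the lipoxygenase that oxidises the linoleate of barrier ceramides, was 27.7, 24.5 and 26.3 CPM at day 0, 26.1, 35.0, 58.1 and 37.3 CPM at day 7, and 19.1, 31.2, 59.9 and 25.1 CPM at day 14 in Mus. In Acomys it was 32.6, 34.6, 31.1 and 40.8 CPM at day 0, 33.8, 20.4, 15.5 and 16.1 CPM at day 7, and 16.9, 13.9, 13.1 and 17.3 CPM at day 14. The Mus wounds overlapped skin; in Acomys 3 of 4 day 7 wounds and all day 14 wounds lay below all skin. Its values in Mus were 0.58 ± 0.32 and 0.37 ± 0.32, neither called, and in Acomys -0.70 ± 0.29 (adjusted p = 0.0438) and -1.18 ± 0.30 (adjusted p = 0.00325). The changes differed between the species by -1.28 ± 0.43 (adjusted p = 0.0261) at day 7 and -1.55 ± 0.44 (adjusted p = 0.0132) at day 14. The day 7 fall in Acomys and the day 7 difference are lost without any of 7 and any of 4 single libraries (adjusted p up to 0.129 and 0.065). Aloxe3, which acts on the product of Alox12b, fell in Acomys, -1.77 ± 0.29 and -1.55 ± 0.28, and its differences from Mus, -1.13 and -1.29, are each lost without single libraries (adjusted p up to 0.107 and 0.0671). Abca12, the transporter that loads lipid into lamellar granules, fell in Acomys, -0.70 ± 0.27 at day 7, lost without any of 5 single libraries (adjusted p up to 0.0964), and -1.02 ± 0.27 at day 14.

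**Figure D3:**
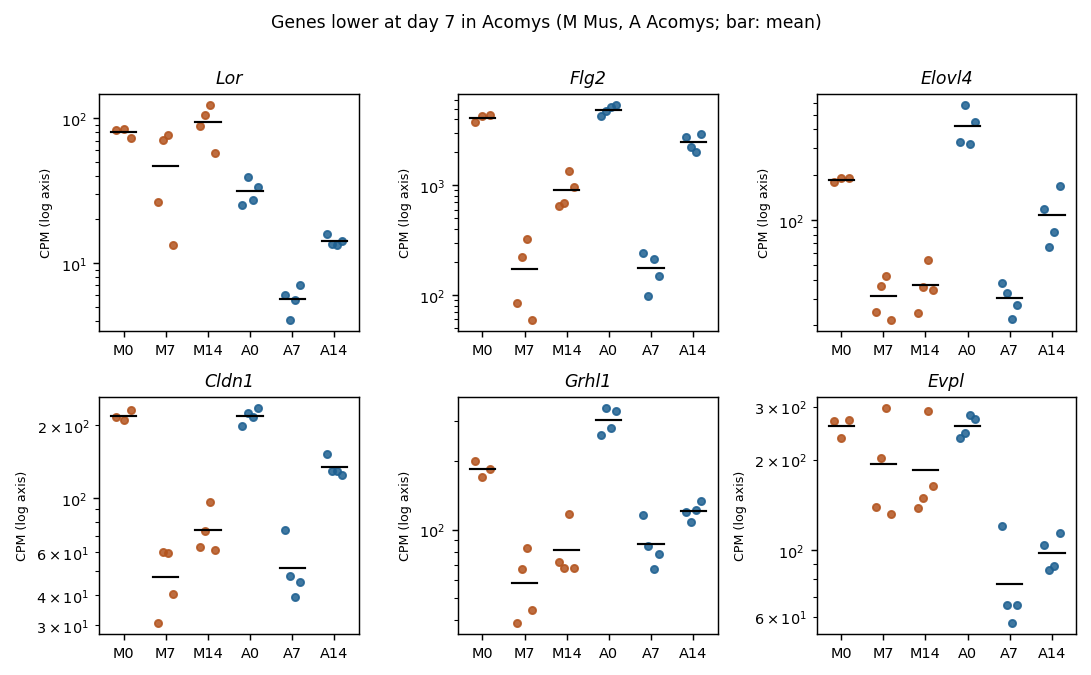
CPM on a log axis (each panel has its own scale) in every library for 6 genes called lower at day 7 in Acomys; M is Mus, A Acomys, the number is the day, points are libraries and black bars are group means. Flg2, Elovl4, Cldn1 and Grhl1 are lower at day 7 in both species without overlap with skin, whereas Lor and Evpl overlap skin in Mus.

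Of the 7 proteases and their inhibitor, 2 rose and none fell in Mus at day 7 (28.6% higher, against 27.0% of all features), and none rose and 2 fell in Acomys (28.6% lower, against 31.4%). At day 14, 2 rose and 2 fell in Mus (28.6% each, against 21.6% and 22.1%), and none rose and 4 fell in Acomys (57.1% lower, against 20.0%). Casp14, the caspase that processes filaggrin during cornification, read 17.8, 15.4 and 27.1 CPM at day 0, 64.2, 145, 255 and 44.8 CPM at day 7, and 149, 104, 241 and 182 CPM at day 14 in Mus. The Acomys libraries read 184, 246, 175 and 336 CPM at day 0, 317, 191, 210.2 and 210.4 CPM at day 7, and 313, 271, 292 and 227 CPM at day 14. All Mus wounds lay above all Mus skin, and the Acomys groups overlap. It rose in Mus by 2.66 ± 0.48 (adjusted p = 0.000103) and 3.07 ± 0.49 (adjusted p = 4.16e-05), while the Acomys values were -0.02 ± 0.39 and 0.23 ± 0.39. The differences were -2.68 ± 0.61 (adjusted p = 0.00194) and -2.84 ± 0.61 (adjusted p = 0.00203). Unwounded Acomys skin already held more than Mus skin, 3.55 ± 0.50 (adjusted p = 3.97e-06).

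The 5 kallikrein genes of the list lie together at chr7:43774604-43851181 (GRCm38). Klk7, the chymotrypsin-like enzyme that cuts corneodesmosomes, was 127, 104 and 123 CPM at day 0, 95.6, 168, 211 and 94.0 CPM at day 7, and 92.9, 105, 221 and 118 CPM at day 14 in Mus. In Acomys it was 32.4, 41.5, 29.8 and 38.6 CPM at day 0, 29.9, 33.8, 23.03 and 26.7 CPM at day 7, and 15.3, 8.99, 12.9 and 12.7 CPM at day 14. It was not called in Mus and fell in Acomys at day 14, -1.51 ± 0.28 (adjusted p = 0.000228), where no wound overlapped skin. The day 14 changes differed by -1.69 ± 0.40 (adjusted p = 0.00391). Klk10 gave 123, 109 and 80.1 CPM at day 0, 68.2, 69.0, 99.9 and 79.6 CPM at day 7, and 13.6, 15.1, 61.8 and 18.6 CPM at day 14 in Mus. In Acomys it gave 53.7, 76.4, 22.6 and 106 CPM at day 0, 15.2, 10.4, 6.76 and 8.96 CPM at day 7, and 17.9, 10.3, 17.1 and 24.2 CPM at day 14. It fell in Acomys at both days, -2.65 ± 0.48 (adjusted p = 8.14e-05) and -1.90 ± 0.46 (adjusted p = 0.00254), and in Mus only at day 14, -1.93 ± 0.48 (adjusted p = 0.00287), where replicate 3 (61.8 CPM) lay far above the other 3 wounds and the value without it was -2.71.

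Klk8, a trypsin-like kallikrein of the upper epidermis, rose in Mus, 2.36 ± 0.46 (adjusted p = 0.000224) and 2.05 ± 0.46 (adjusted p = 0.00114), and was not called in Acomys. The differences were -2.15 ± 0.59 (adjusted p = 0.00761) and -2.53 ± 0.59 (adjusted p = 0.00412). Klk5, which activates other kallikreins, fell in Acomys at day 14, -0.86 ± 0.27 (adjusted p = 0.0161), a call lost without skin replicate 4 (adjusted p = 0.0555). Klk11 was not called against skin in either species. Its day 14 difference, -1.24 ± 0.45 (adjusted p = 0.0477), is lost without any of 12 single libraries (adjusted p up to 0.109). Spink5, the inhibitor that restrains these kallikreins, read 998, 978 and 1078 CPM at day 0, 419, 972, 911 and 329 CPM at day 7, and 346, 433, 712 and 539 CPM at day 14 in Mus. The Acomys libraries read 744, 1300.0, 829 and 1255 CPM at day 0, 474, 461, 423 and 421 CPM at day 7, and 292, 219, 267 and 326 CPM at day 14. All day 14 wounds of both species lay below all skin. It fell, -1.0 ± 0.30 at day 14 in Mus, not called in the Mus table (adjusted p = 0.0514), and -1.21 ± 0.28 and -1.90 ± 0.29 in Acomys. Neither species difference of the changes was called.

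Of the 10 desmosome and plakin genes tested, 1 rose and 4 fell in Mus at day 7, 1 rose and 5 fell in Acomys at day 7, and 2 rose and 1 fell in Mus at day 14. In Acomys at day 14 none rose and 8 fell, with changes from -1.53 to -0.45 over the class. Scaled to the keratinocyte genes, Dsg1a, Dsc3 and Pkp1 turned to 0.047, 0.078 and 0.0089 there. In Mus at day 7, Dsg1a and Dsp turned to 0.045 and 0.11. In the same 2 comparisons, genes not called before turned as well and were then called higher. They were Dsc1 (0.54) in Acomys at day 14 and Pkp1 (0.51), Pkp3 (0.71) and Evpl (0.41) in Mus at day 7. Dsc2, desmocollin 2, the most widely expressed desmocollin, was the one that rose at day 7 in both species. Its Mus levels were 24.7, 22.3 and 26.4 CPM at day 0, 219, 215, 306 and 177 CPM at day 7, and 10.3, 29.6, 136 and 119 CPM at day 14. Its Acomys levels were 70.7, 113, 57.0 and 101 CPM at day 0, 204, 184, 257 and 216 CPM at day 7, and 39.1, 101, 45.7 and 43.4 CPM at day 14. Day 7 wounds lay above all skin in both species, and Mus day 14 ranged from below skin (10.3 CPM) to far above it (136). The day 7 rises were 3.23 ± 0.62 (adjusted p = 0.000212) in Mus and 1.34 ± 0.51 (adjusted p = 0.0282) in Acomys, the latter lost without any of 3 single libraries (adjusted p up to 0.0779). The day 14 rise in Mus, 1.59 ± 0.58 (adjusted p = 0.0337), and the day 14 difference, -2.17 ± 0.77 (adjusted p = 0.0458), are lost without any of 5 and any of 11 single libraries (adjusted p up to 0.126 and 0.109), and with a replicate block (0.197 and 0.140).

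Dsg1a, a desmoglein of the upper epidermis, was 1381, 1246 and 1581 CPM at day 0, 525, 962, 1217 and 547 CPM at day 7, and 944, 915, 1460.5 and 1115 CPM at day 14 in Mus. In Acomys it was 843, 1023, 930.3 and 1162 CPM at day 0, 932, 711, 552 and 682 CPM at day 7, and 529, 484, 533 and 514 CPM at day 14. It fell in Mus at day 7, -0.79 ± 0.23 (adjusted p = 0.00717), though not with only the 2 groups in the fit (adjusted p = 0.054), and in Acomys at day 14, -0.94 ± 0.22 (adjusted p = 0.00162), where no wound overlapped skin. Evpl, envoplakin, which links the envelope to keratin filaments, was 268, 237 and 270.0 CPM at day 0, 139, 202, 297 and 132 CPM at day 7, and 138, 148, 289.9 and 163 CPM at day 14 in Mus. In Acomys it was 235, 245, 281 and 273 CPM at day 0, 121, 65.7, 57.2 and 65.5 CPM at day 7, and 104, 86.1, 88.6 and 114 CPM at day 14. It fell in Acomys at both days, -1.74 ± 0.27 (adjusted p = 9.48e-06) and -1.40 ± 0.26 (adjusted p = 0.000245), without overlap, and was not called in Mus. The day 7 changes differed by -1.32 ± 0.38 (adjusted p = 0.011).

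The rest of the class were lower at day 14 in Acomys in 6 of 7 cases, against 20.0% of all features. Ppl (periplakin) and Dsp (desmoplakin), the plakins that tie desmosomes to keratin, fell at day 7 in both species: Ppl at -0.92 ± 0.29 in Mus and -1.12 ± 0.27 in Acomys, and Dsp at -0.73 ± 0.27 and -1.35 ± 0.25. The Mus call of Dsp is lost without any of 4 single libraries (adjusted p up to 0.0837). Pkp1 and Pkp3, plakophilins of the desmosomal plaque, fell in Acomys at both days and were not called in Mus. The day 7 fall of Pkp3 is lost without any of 3 single libraries (adjusted p up to 0.0643). Dsc3, a desmocollin of the lower layers, fell in Mus, -1.23 ± 0.17 and -1.12 ± 0.17, but in Acomys its day 7 value was -0.17 ± 0.16, a difference of 1.06 ± 0.23 (adjusted p = 0.00124), and it fell there at day 14, -0.91 ± 0.16. Dsg3, the basal desmoglein, fell in Acomys at day 14, -1.53 ± 0.27 (adjusted p = 0.000133). Dsc1, of the uppermost layers, rose in Mus at day 14, 0.79 ± 0.29 (adjusted p = 0.0314), and differed from Acomys by -1.24 ± 0.39 (adjusted p = 0.0236). Both calls are lost without Mus skin replicate 1 or 2 or wound replicate 3 (adjusted p up to 0.127 and 0.0638).

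Cdsn, corneodesmosin, the glue protein of corneodesmosomes, was 188 ± 2.65 CPM (SD, n = 3) in Mus skin, 206 ± 129 at day 7 and 169 ± 85.6 at day 14 (n = 4 each) on the scale of the Mus table. In the Acomys table it was 135 ± 43.2, 90.9 ± 17.8 and 49.6 ± 3.97 CPM (n = 4 each). Tested within each own table, it was not called in Mus, 0.13 ± 0.49 (adjusted p = 0.833) at day 7 and -0.15 ± 0.49 (adjusted p = 0.825) at day 14, and fell in Acomys, -0.57 ± 0.20 (adjusted p = 0.0256) and -1.44 ± 0.20 (adjusted p = 3.9e-05). In the Mus table, a share of 57.6% of all features were called at day 7 (29.3% higher, 28.3% lower) and 45.9% at day 14 (23.2% and 22.7%). In the Acomys table these shares were 43.1% (21.2% and 21.9%) and 22.2% (11.7% and 10.5%). The species were not compared for Cdsn.

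The gap junction genes rose in early wounds of both species, and their changes differed between the species at both days. Gjb2 and Gjb6 encode connexins 26 and 30, which form channels between keratinocytes and lie beside each other at chr14:57098600-57104702 and chr14:57123303-57133611 (GRCm38). Their coding sequences are 76.1% identical over the aligned part. Gjb2 read 5.54, 4.76 and 8.25 CPM at day 0, 347, 380.3, 507 and 284 CPM at day 7, and 87.0, 198, 292 and 162 CPM at day 14 in Mus. The Acomys libraries read 32.7, 51.6, 26.6 and 40.7 CPM at day 0, 397, 406, 265 and 352 CPM at day 7, and 22.3, 39.2, 40.0 and 21.6 CPM at day 14. Every Mus wound lay above every Mus skin library by a wide margin, as did the Acomys day 7 wounds over their skin, and the Acomys day 14 wounds overlapped skin. It rose by 5.93 ± 0.44 and 4.89 ± 0.42 in Mus and by 3.23 ± 0.33 at day 7 in Acomys, where the day 14 value was -0.30 ± 0.31 (adjusted p = 0.47). The changes differed by -2.71 ± 0.49 (adjusted p = 0.000236) at day 7 and -5.20 ± 0.51 (adjusted p = 7.29e-07) at day 14.

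Gjb6 was 1.35, 2.13 and 3.001 CPM at day 0, 139.5, 159, 206 and 121 CPM at day 7, and 30.6, 44.9, 118 and 78.2 CPM at day 14 in Mus. In Acomys it was 10.98, 22.2, 7.38 and 22.4 CPM at day 0, 84.8, 93.2, 82.3 and 94.1 CPM at day 7, and 6.09, 10.3, 9.20 and 8.30 CPM at day 14. Mus skin had the lowest levels, and the order of the groups was the one seen for Gjb2. It rose by 6.15 ± 0.52 and 4.95 ± 0.51 in Mus and by 2.49 ± 0.36 at day 7 in Acomys, with -0.90 ± 0.38 (adjusted p = 0.0656) at day 14. The changes differed by -3.66 ± 0.61 (adjusted p = 0.00012) and -5.84 ± 0.63 (adjusted p = 2.27e-06), and without each library in turn these differences and those of Gjb2 were called. The species also differed in unwounded skin, where Acomys held more than Mus, by 2.61 ± 0.39 for Gjb2 and 2.84 ± 0.52 for Gjb6. In wounds of day 7 the species differed by -0.10 ± 0.30 (adjusted p = 0.782) and -0.82 ± 0.33 (adjusted p = 0.0322), the latter lost without any of 5 single libraries (adjusted p up to 0.101). The shared table holds 43.1% of the Gjb2 counts of the Mus table, against a median of 73.7% over genes, which bears on these between-species levels.

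The tight junction gene Cldn1 moved the other way, while Cldn4 was not called at day 7 in either species. Cldn1, claudin 1, the main sealing claudin of the epidermis, fell at both days in both species, -2.20 ± 0.21 and -1.57 ± 0.21 in Mus and -2.09 ± 0.20 and -0.71 ± 0.19 in Acomys. Skin ranged from 210.0 to 230.4 CPM in Mus and 199 to 236 in Acomys, day 7 wounds from 30.6 to 60.0 and 39.3 to 73.9, and day 14 wounds from 61.2 to 96.9 and 125 to 153, with no overlap between the 3 days in either species. Scaled to the keratinocyte genes, the Acomys day 14 value turned to 0.28. It was the only gene whose day 14 change was called higher in Acomys than in Mus, 0.87 ± 0.28 (adjusted p = 0.028), a call lost without any of 6 single libraries (adjusted p up to 0.0612). Cldn4 fell in Acomys at day 14, -1.01 ± 0.28 (adjusted p = 0.0072), and was not called in Mus.

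Of the 3 transcription regulators, Grhl1, a grainyhead-like factor that controls desmosomal cadherin genes, fell in every wound group. It read 199, 169.8 and 184 CPM at day 0, 39.0, 67.0, 83.4 and 44.3 CPM at day 7, and 72.2, 67.7, 117 and 67.9 CPM at day 14 in Mus. In Acomys it read 259, 341, 279.6 and 329.7 CPM at day 0, 115, 85.0, 66.9 and 78.4 CPM at day 7, and 119.6, 108, 121 and 134 CPM at day 14. No wound overlapped skin. The falls were -1.65 ± 0.23 and -1.18 ± 0.23 in Mus and -1.81 ± 0.21 and -1.33 ± 0.21 in Acomys, and the species' changes differed by -0.15 ± 0.31 (95% interval -0.80 to 0.49) and -0.15 ± 0.31 (95% interval -0.79 to 0.50), neither called. Ovol1, a zinc-finger factor of differentiating keratinocytes, was 28.9, 28.8 and 30.8 CPM at day 0, 27.4, 26.6, 41.8 and 19.7 CPM at day 7, and 21.97, 35.6, 61.7 and 41.2 CPM at day 14 in Mus. In Acomys it was 32.9, 55.3, 42.6 and 56.0 CPM at day 0, 61.1, 34.5, 49.6 and 39.2 CPM at day 7, and 31.6, 27.4, 28.8 and 28.7 CPM at day 14. Against skin it was called only in Acomys at day 14, -0.68 ± 0.25 (adjusted p = 0.0355), lost without any of 6 single libraries (adjusted p up to 0.102). Grhl3, the relative that drives barrier formation, was not called at day 7 and fell in Acomys at day 14, -0.89 ± 0.26 (adjusted p = 0.00873), with a difference from Mus of -1.33 ± 0.38 (adjusted p = 0.0134).

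Set side by side, 9 genes rose at day 7 in both species (Rptn, Sprr1b, Sprr2d, Sprr3, Tgm1, Tgm3, Dsc2, Gjb2 and Gjb6). Another 6 fell in both (Flg2, Elovl4, Dsp, Ppl, Cldn1 and Grhl1) and none was called in opposite directions. Of all features, 27.0% in Mus and 30.4% in Acomys were called higher at day 7, and 26.7% and 31.4% lower. How many of all features shared a direction, or kept it at day 14, was not counted. The overlaps are thus not read as a trait of the barrier genes. Tgm3 in Acomys is among the 9 in the shared table only. All 9 were still higher than skin at day 14 in Mus. In Acomys 1 of them, Rptn, was higher and 1, Tgm1, lower. The Mus day 14 calls of Sprr3, Tgm1 and Dsc2 are lost without single libraries and with a replicate block (above). Both Acomys day 14 calls are also lost without single libraries (above). Between day 7 and day 14, 19 of the 43 fell and 4 rose in Acomys (44.2% of the genes lower against 21.8% of all features, with 44.4% called either way), and all 9 were among the 19. In Mus 7 fell and 3 rose (16.3% lower against 12.5% of all features, with 9.60% called higher and 22.1% either way), and 4 of the 9 were among the 7: Tgm1, Dsc2, Gjb2 and Gjb6. The Mus count is unstable: with only the 2 groups in the fit 1 gene was called, and 3 in the Mus table (where 23.9% of features are called). Without day 7 replicate 1 or day 14 replicate 1, 2 or 4 it was 4 to 6.

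The test of the difference itself, which compares the change in Acomys with the change in Mus, called 14 of 43 genes at day 7, 2 higher and 12 lower in Acomys, that is 32.6% against 35.8% of all features (17.1% higher and 18.7% lower). At day 14 it called 21, 1 higher and 20 lower in Acomys: 46.5% of the genes lower against 12.0% of all features, with 13.1% called higher and 25.1% either way. Of the 9 genes that rose at day 7 in both species, 3 (Tgm3, Gjb2 and Gjb6) had a lower day 7 change in Acomys. A lower day 14 change was called for 8 of them, all but Sprr2d. The same shares among all features that rose at day 7 in both species were not counted. Without Mus skin replicate 1, 2 or 4 the day 14 count is 11, 13 and 13, without Mus day 14 replicate 3 it is 14, and 11 of the 21 calls hold in every fit without 1 library. Those of Sprr1b (adjusted p up to 0.251) and Sprr3 (up to 0.0933) do not, and the Sprr3 value is a fitted one that rests on 1 count in Acomys and 9 in Mus at day 14, with none in Mus skin.

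**Figure D4:**
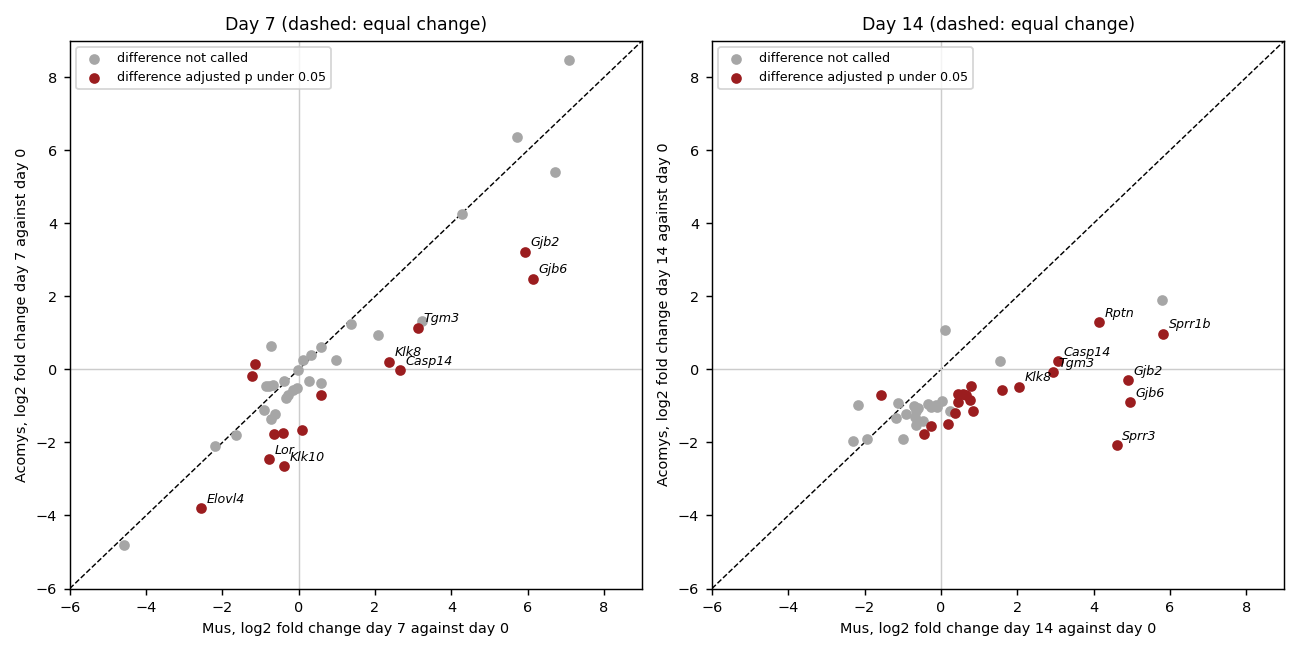
Each point is 1 of the 43 genes: its log2 fold change against skin in Mus (x axis) and in Acomys (y axis), at day 7 (left) and day 14 (right); red points have a called difference of the 2 changes, and those far from 0 are named. At day 7 the differences of 14 genes are called, 12 of them below the dashed line of equal change. At day 14 the named points lie far below it, with values of 2.05 to 5.83 in Mus and -2.07 to 1.30 in Acomys; the Sprr3 point is a fitted value, since Mus skin held no count.

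Levels of the 2 species on 1 day carry differences between the references as well as between the animals. In unwounded skin 12 genes were higher and 8 lower in Acomys (46.5% against 65.7% of all features called, 34.5% higher and 31.2% lower), in day 7 wounds 7 and 16 (53.5% against 70.9%, of which 35.9% higher and 34.9% lower), and in day 14 wounds 6 and 29 (81.4% against 72.7%, of which 38.1% higher and 34.6% lower). Scaled to the keratinocyte genes, these splits became 28 and 4, 22 and 8, and 12 and 13. Of the 14514 features, 10589, 10751 and 11020 were then called. Between species this scaling rests largely on Krt5, which was lower in Acomys by -5.48, -4.33 and -5.09 at days 0, 7 and 14: the mean difference over the 8 genes was -0.89, -0.90 and -1.01, and over the 7 others -0.24, -0.41 and -0.42. Skin of Acomys held less Hrnr (-3.36 ± 0.51), Rptn (-2.48 ± 0.49) and Lor (-1.36 ± 0.38), and more Casp14, Gjb6 and Gjb2 (above). At day 14 Rptn (-5.34 ± 0.51), Sprr1b (-6.29 ± 0.59) and Sprr2d (-5.03 ± 0.71) were lower in Acomys wounds, and Flg2 (1.45 ± 0.39), Elovl4 (1.55 ± 0.29) and Cldn1 (0.87 ± 0.19) were higher. Of the Elovl4 counts of the Mus table the shared table holds 12.5%, against a median of 73.7% over genes. In Acomys it holds 70.5%, against a median of 70.0%. The part of this gap in the higher Elovl4 level of Acomys was not tested. The share is also small for Gjb2 (above), Sprr1b (31.7%), Sbsn (38.5%) and Klk7 (43.5%) in Mus, and for Tgm3 (above) in Acomys.

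Other genes of the same pathways, 120 listed of which 99 were in the shared table and tested, are given here as counts. In Mus 34 rose and 46 fell at day 7 (34.3% and 46.5%, against 27.0% and 26.7% of all features), and 29 and 42 at day 14 (29.3% and 42.4%, against 21.6% and 22.1%). In Acomys 26 rose and 49 fell at day 7 (26.3% and 49.5%, against 30.4% and 31.4%), and 7 and 60 at day 14 (7.1% and 60.6%, against 18.9% and 20.0%). Lce3b is a late envelope gene and Sprr2h a further SPRR gene. Lce3b was at 0 in every Mus skin library, 22.5 ± 6.55 CPM (SD, n = 4) at day 7 and 11.5 ± 16.4 (n = 4) at day 14, and in Acomys 0.082 ± 0.107, 44.6 ± 13.8 and 0.070 ± 0.090 CPM (n = 4 each). Sprr2h was 0.426 ± 0.276 CPM in Acomys skin, 222 ± 70.8 at day 7 and 0.559 ± 0.595 at day 14 (n = 4 each). The claudin Cldn8 and the fatty-acid hydroxylase Fa2h, which is also a sebaceous gland gene, fell: Fa2h from 172 ± 27.3 CPM (n = 3) to 4.25 ± 1.22 (n = 4) at day 7 in Mus and from 569.7 ± 88.0 to 11.3 ± 7.19 (n = 4 each) in Acomys, and Cldn8 from 11.1 ± 1.70 (n = 3) to 0.158 ± 0.132 (n = 4) and from 26.86 ± 12.97 to 0.091 ± 0.126 (n = 4 each). The 7 sebaceous gland markers moved with Fa2h, from 3382 to 3773 CPM in sum in Mus skin to 484 to 553 at day 7, and from 2090 to 2950 to 184 to 237 in Acomys. Their part in its fall was not tested.

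Structures of the hair follicle share several of these genes, Tgm3 among them. The 10 inner root sheath and hair shaft markers counted (of 11 listed) summed to 12.6 to 14.67 CPM in Mus skin, where 2 of them were at 0, 7.82 to 562 CPM in day 7 wounds and 458 to 886 CPM in day 14 wounds. In Acomys they summed to 20.1 to 1283 CPM in skin, 2.31 to 4.64 at day 7, with 1 at 0, and 735 to 3507 at day 14. Their part in the values of Tgm3 and the other genes was not tested.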

How the data were processed

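The members and gene lists were chosen with earlier results of these data known. The starting point was 3 deposited count tables. The table shared by both species holds the authors' whole-number counts per gene, and the tables of each species hold the authors' expected counts; none is normalised. How the shared table was made is not given in the sources used here. The submitters' processing notes name, in no order, RSEM 1.2.28, Bowtie2, Trimmomatic 0.32, FastQC 0.11.4 and the build mm9. No strand setting is given.

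Spike-in rows (0.68 to 1.96% of shared-table counts) were removed and expected counts rounded. All 23 libraries of the shared table were fitted together with edgeR 4.0.16 (R 4.3.3): filterByExpr by group, TMM, robust quasi-likelihood F-test, two-sided, Benjamini-Hochberg adjustment over 14514 features in each of 11 contrasts, threshold 0.05. Own tables were fitted separately the same way. The SE was taken from the F statistic. A group without counts was set to a floor of 3 counts, and intervals cover counting error only. Values in every library are given for 12 genes chosen by name and, in each class, for the genes with the largest day 7 changes and day 7 difference. Alternatives were RLE size factors, no filter, DESeq2 1.42.0, only the groups compared, own tables, a replicate block, each library left out, and scaling to keratinocyte genes (8 of 9 listed were in the table). Describing Cdsn from own tables was decided after the data were seen. In simulated data, 100 of 14514 genes were changed 2-fold and 100 were changed 4-fold. The Mus day 7 fit recovered 63% of 2-fold and 96% of 4-fold changes, and the day 7 difference 45% and 90%. In the data 53.7% and 35.8% of features are called in these contrasts, so these rates do not measure the power of the real fits. Coding sequences were aligned with Biopython 1.88; GRCm38 is a later build than the submitters'.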

Additional observations from a re-analysis of the deposited data

Results flagged for a closer look

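A library lay far from the other 3 of its group in 18 of the 215 groups of 4 examined (43 genes in 5 groups); chance flags about 1 group in 20. Replicate 3 of Mus day 14 was the highest for Aloxe3 (37.6 CPM), Klk10 (61.8), Klk11 (24.5), Evpl (289.9), Cldn4 (58.2) and Grhl1 (117), and its keratinocyte reference, 281 CPM, was also the highest of its group (162 to 195 in the others). Replicate 1 of Acomys day 7 was the highest for Casp14 (317 CPM), Dsg3 (139.5), Dsc3 (944), Pkp3 (79.2), Evpl (121) and Grhl3 (61.9), and its reference was 156 CPM against 90.9 to 118. The part of the reference in these levels was not tested. Other single libraries were Sprr1a in Acomys day 7 replicate 4 (lowest, 73.3 CPM), Sprr3 in Mus day 14 replicate 4 (highest, 0.795) and Acomys day 14 replicate 3 (highest, 0.0893, 1 count), Tgm1 in Acomys day 14 replicate 1 (highest, 62.2), Aloxe3 in Acomys skin replicate 3 (highest, 32.7) and Dsc2 in Acomys day 14 replicate 2 (highest, 101.5).

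The change against skin differed between the species, by the edgeR test of the difference (Acomys minus Mus, log2), in 14 genes at day 7. Lower in Acomys were Lor (-1.69), Tgm3 (-1.99), Alox12b (-1.28), Aloxe3 (-1.13), Casp14 (-2.68), Klk8 (-2.15), Klk10 (-2.26), Elovl4 (-1.24), Calml3 (-1.76), Evpl (-1.32), Gjb2 (-2.71) and Gjb6 (-3.66), and higher were Dsc3 (1.06) and Sbsn (1.28). At day 14 it differed in 21 genes. Lower in Acomys were Rptn (-2.86), Sprr1a (-1.97), Sprr1b (-4.85), Sprr3 (-6.68, a fitted value and no bound, since Mus skin held no count and Acomys 1 at day 14), Tgm1 (-1.36), Tgm3 (-3.02), Tgm5 (-1.33), Alox12b (-1.55), Aloxe3 (-1.29), Casp14 (-2.84), Klk7 (-1.69), Klk8 (-2.53), Klk11 (-1.24), Dsc1 (-1.24), Dsc2 (-2.17), Calml3 (-1.61), Grhl3 (-1.33), Ovol1 (-1.12), Gjb2 (-5.20) and Gjb6 (-5.84), and higher was Cldn1 (0.87).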

How the results depend on the processing

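Called genes are counted among the 43. With only the groups compared in the fit, Mus day 14 against day 7 had 1 called gene in place of 10, and 3 in the table of Mus alone. Without 1 library the counts ranged from 21 to 26 (Mus day 7 against skin), 16 to 26 (Mus day 14), 4 to 11 (Mus day 14 against day 7), 21 to 28 (Acomys day 7), 24 to 29 (Acomys day 14), 21 to 24 (Acomys day 14 against day 7), 17 to 20, 20 to 24 and 31 to 34 (Acomys against Mus at days 0, 7 and 14), and 10 to 16 and 11 to 24 (differences of the day 7 and day 14 changes). The DESeq2 Wald test and RLE scaling kept each count within 1.5 times and reversed none of 473 values. The filter removed none of the 14514 features, so the fit with no filter only repeats the main fit.

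With replicate number as a block the counts were 31, 27 and 13 in Mus (day 7 and day 14 against skin, day 14 against day 7), 30, 31 and 28 in Acomys, and 13 and 18 for the differences of changes. The split in Mus at day 14 became 9 higher and 18 lower. Libraries of one number correlated by 0.0753 to 0.0983 (Mus day 0 with day 7) and 0.0611 to 0.143 (Mus day 0 with day 14), and from -0.16 to 0.583 over the other pairs. In no comparison did every pair exceed 0.1, so the numbers were not taken as pairs in the main fit. Each Mus wound library correlated best with the Mus skin library of its own number, where there was one. Mus day 14 replicates 1, 3 and 4, but not 2, did so with day 7. In Acomys this held only for replicate 2 (day 14 with skin) and replicates 1 and 3 (day 14 with day 7). Whether animals were sampled repeatedly is not stated. No paired analysis was possible for Acomys against Mus on 1 day because the block was set within each species.

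Scaling to the keratinocyte genes gave 33 called genes for Mus day 14, 17 for Acomys day 14 and 32 for Acomys against Mus skin. Of the 14514 features it called 11163, 11686 and 10589 in these comparisons. It also turned 68 of the 473 values, all called before or after, from negative to positive. No other setting turned a called value. For Mus day 7 against Mus day 0 they were Tgm5 0.80, Abca12 0.54, Dsg1a 0.045, Dsp 0.11, Pkp1 0.51, Pkp3 0.71, Ovol1 0.82 and Evpl 0.41. For Mus day 14 against Mus day 0 they were Abca12 0.80, Aloxe3 0.59, Dsg1a 0.59, Pkp1 0.75, Pkp3 0.63 and Evpl 0.40. For Acomys day 7 against Acomys day 0 they were Abca12 0.14, Alox12b 0.13, Casp14 0.86, Klk5 0.58, Klk7 0.56, Dsg1a 0.41, Dsc1 0.46, Dsc3 0.73, Pkp1 0.045, Pkp3 0.29, Cldn4 0.49, Ovol1 0.88 and Krtdap 0.42. For Acomys day 14 against Acomys day 0 they were Tgm1 0.27, Tgm3 0.91, Klk5 0.14, Dsg1a 0.047, Dsc1 0.54, Dsc3 0.078, Pkp1 0.0089, Cldn1 0.28, Grhl3 0.088, Ovol1 0.31 and Gjb2 0.71. For Acomys day 0 against Mus day 0 they were Tgm5 0.87, Dsg3 0.034, Dsc3 0.62, Pkp1 0.86, Pkp3 0.23, Cldn4 0.73 and Ppl 0.48. For Acomys day 7 against Mus day 7 they were Tgm3 0.86, Tgm5 0.41, Alox12b 0.0004, Dsg1a 0.76, Dsg3 0.18, Dsc1 0.52, Pkp1 0.39, Elovl4 0.85, Sbsn 0.76, Ppl 0.29, Gjb2 0.82 and Gjb6 0.13. For Acomys day 14 against Mus day 14 they were Tgm1 0.11, Abca12 0.74, Klk5 0.95, Klk8 0.061, Spink5 0.099, Dsc1 0.31, Dsc3 0.90, Pkp1 0.12, Cldn4 0.58, Ovol1 0.55 and Evpl 0.079. The scaling itself adds the shift given in the report. Depth limits Sprr3, Sprr1b and Sprr2d, whose skin libraries hold 0 to 18 counts each.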
